A study of Mus musculus with 8 samples.

Results

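A set of 10 glycolysis genes was followed in mouse testis, chosen because each makes either an enzyme form found in sperm or its counterpart in other cells. They were 10 of the 17127 genes of the table, picked by name. The germ-cell forms were Gapdhs, Pgk2, Ldhc and Aldoart1, and the somatic forms were Gapdh, Pgk1, Ldha, Ldhb and Aldoa. Hk1 was listed apart, as a gene that stands for both forms. The somatic forms carry that name from the list and were not shown to be absent from germ cells. The libraries came from whole adult testes of wild-type mice and of mice homozygous for a mutation of Iqch (genotype Iqch-/-), all males aged 4 months. The mutation was made with CRISPR/Cas9 in zygotes of a C57BL/6 by CBA cross and removes bases of exon 19 that shift the reading frame. The study describes 2 such edited lines, and the labels do not give the line of each library. Of the 8 samples listed, 7 were analysed here, namely wild type 1 to 4 and Iqch mutant 1, 2 and 4, and mutant 3 was not analysed here. The study left out a mutant library as an outlier, so the spread of the mutants below is that of the 3 kept. The unit was CPM, a gene's reads scaled to a fixed total of reads in its library.

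Glycolysis splits glucose into pyruvate and yields ATP and NADH, and lactate dehydrogenase turns pyruvate into lactate while it restores NAD. In the testis, Sertoli cells release lactate that spermatocytes and spermatids take up, while the finished sperm relies on glycolytic enzymes bound along its tail. Several of these sperm enzymes come from genes used only in meiotic and post-meiotic germ cells. Some are retrogenes, copies of a spliced messenger RNA put back into the genome, and Pgk2 is the classic case, an autosomal copy of the X-linked Pgk1. X-linked genes are silenced in meiotic spermatocytes.

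The paralogues differ in how easily their reads can be told apart, so their sequences are given first. The 4 germ-cell forms lie on autosomes in GRCm39. Gapdhs (ENSMUSG00000061099) runs from 30429200 to 30443106 on the minus strand of chromosome 7, Ldhc (ENSMUSG00000030851) from 46509777 to 46527794 on the plus strand of the same chromosome, Pgk2 (ENSMUSG00000031233) from 40517906 to 40519531 on the minus strand of chromosome 17, and Aldoart1 (ENSMUSG00000059343) from 72768820 to 72770871 on the minus strand of chromosome 4. The canonical transcripts of Pgk2 and Aldoart1 have 1 exon each, against 11 in Pgk1 and 9 in Aldoa. Gapdhs has 11 exons and Gapdh 7, and the 3 lactate dehydrogenase genes have 8 each. Ldha lies from 46490899 to 46505061 on the plus strand of chromosome 7, upstream of Ldhc.

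The proteins were translated from the canonical transcripts and aligned end to end. Gapdhs codes for 440 residues and Gapdh for 333, and 71.1% of the aligned residues are identical. Pgk2 and Pgk1 both have 417 residues with 83.7% identity. Ldhc shares 72.3% of aligned residues with Ldha and 64.8% with Ldhb. Aldoart1 and Aldoa, at 364 residues each, share 95.3% of residues and 94.2% of coding bases, the closest pair of the 5. To show what a read would meet, 60 coding bases of each pair are printed below from GRCm39, read 5′ to 3′ on the coding strand, with capitals at the bases that differ between the pair. The stretch begins at coding base 301 of Pgk2, Pgk1, Aldoart1 and Aldoa, at 316 of Ldhc and Ldha, at 649 of Gapdhs and at 334 of Gapdh.
Gapdhs: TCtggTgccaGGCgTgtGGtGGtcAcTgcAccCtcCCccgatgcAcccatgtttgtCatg
Gapdh: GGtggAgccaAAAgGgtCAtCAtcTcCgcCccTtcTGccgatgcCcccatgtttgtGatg
Pgk2: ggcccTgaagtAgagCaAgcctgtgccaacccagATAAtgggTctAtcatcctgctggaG
Pgk1: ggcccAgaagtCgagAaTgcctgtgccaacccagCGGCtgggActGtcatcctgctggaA
Ldhc: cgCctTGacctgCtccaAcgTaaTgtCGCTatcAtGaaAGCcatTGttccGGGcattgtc
Ldha: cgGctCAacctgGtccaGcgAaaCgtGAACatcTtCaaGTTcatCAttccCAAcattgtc
Aldoart1: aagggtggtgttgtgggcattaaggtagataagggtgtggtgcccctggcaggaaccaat
Aldoa: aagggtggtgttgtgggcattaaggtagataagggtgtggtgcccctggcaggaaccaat

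In these stretches Gapdhs and Gapdh differ at 19 bases, Pgk2 and Pgk1 at 11, and Ldhc and Ldha at 21. Aldoart1 and Aldoa differ at 0, so a read lying wholly in this stretch could come from either gene. The reads of the study were longer than this stretch before trimming. The larger question is whether a transcript is copied anywhere else in the genome, as it is in genes with many processed pseudogenes. Every window of 50 and of 100 bases along each canonical transcript was searched for an exact copy outside the gene on either strand of GRCm39. Gapdhs, Pgk2 and Ldhc had 0% of windows copied at both lengths. Aldoart1 had 5% of its 50-base windows copied and 0% of its 100-base windows.

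The somatic forms were another matter. Gapdh had 85.1% of its 100-base windows copied elsewhere and Pgk1 89.8%. Ldhb had 7.9%, Ldha 1.88% and Aldoa 0% at 100 bases, and at 50 bases these shares were 28.5%, 33.8% and 15.2%. Hk1 had 0% at 100 bases. The counting rule for reads with several matches is not given in the sources used here, so levels of Gapdh and Pgk1 in this table are uncertain, and the rises and ratios built on them below are read with that limit.

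**Figure D1:**
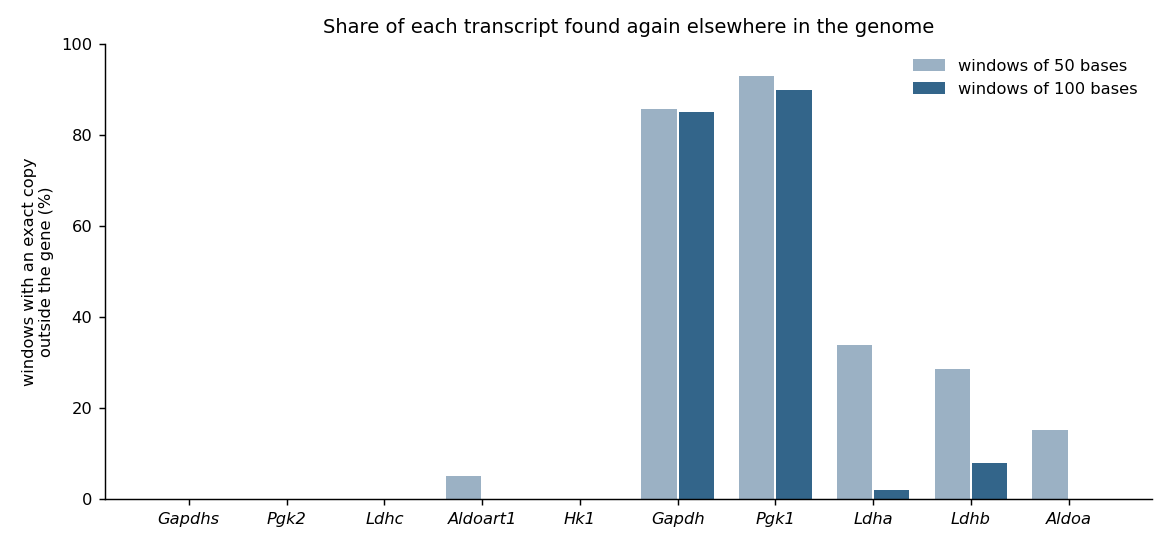
Bars give, for each gene, the percentage of windows of 50 bases (light) and 100 bases (dark) along the canonical transcript that have an exact copy outside the gene in GRCm39. Gapdh and Pgk1 stand at 85.1% and 89.8% for 100-base windows, while Gapdhs, Pgk2, Ldhc, Aldoart1, Aldoa and Hk1 are at 0%.

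Exons of other genes also run through some members, and the strand setting of the counting is not given in the sources used here. Exons of the antisense gene Iffo1 cover 41.6% of the exon bases of Gapdh over all its transcripts. The mean CPM of Iffo1 itself was 66.5 ± 4.0 over the 4 wild types and 88.0 ± 2.3 over the 3 mutants (SD), well above that of Gapdh. The same-strand gene Gm57854 covers 43.1% of the exon bases of Aldoa, with 19.3 ± 0.57 CPM in wild type and 18.9 ± 1.3 CPM in mutants. Tmem147os, antisense to Gapdhs, covers 16% of its exon bases and stayed near 8.5 CPM in each genotype. The part of these overlaps in the values below was not tested.

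The label of the groups was checked first on Iqch, whose product is an IQ motif protein. The study detected it in the cells of the seminiferous tubules and in Leydig cells. Iqch stood between 193 and 217 CPM in the 4 wild-type libraries and between 64.8 and 69.2 CPM in the 3 mutants, with a log2 fold change of -1.63 ± 0.05 (SE). Elongating spermatid markers were abundant in every library. At 32064384 to 37551057 reads per library, 1 read was worth about 0.03 CPM. Among the 17126 genes tested, 50.4% were called at an FDR of 0.01 with limma, 36.3% higher and 14.2% lower in the mutant. All tested genes together had a median log2 fold change of 0.12, so a gene at 0.12 moved with the bulk of the table. When CPM were divided by median-of-ratios size factors, that median became -0.01 and the calls were 27% higher and 25.1% lower. These shares are the background for every count below, and fold changes under the second scaling are given where they change the call of a member or pathway gene.

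All 4 germ-cell forms fell in the mutant testis. The fall was 25.3% for Gapdhs, 25.0% for Aldoart1, 20.7% for Pgk2 and 17.3% for Ldhc, and Hk1 fell by 27.4%. Of the somatic forms, Ldhb and Gapdh rose, Ldha fell, and Pgk1 and Aldoa did not pass the test. Over the 10 members this made 6 called lower and 2 called higher, against 14.2% and 36.3% of all tested genes. In whole tissue, fewer cells of a type and less RNA per cell cannot be told apart.

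Gapdhs makes the sperm glyceraldehyde-3-phosphate dehydrogenase, which is anchored to the fibrous sheath of the tail and without which sperm cannot swim forward. It stood at 1603, 1606, 1489 and 1545 CPM in wild type 1 to 4 and at 1248, 1095 and 1153 CPM in mutants 1, 2 and 4. Every mutant lay below every wild-type library, and mutant 1 came closest to them. The log2 fold change was -0.42 ± 0.05 (SE, limma FDR = 7.53e-06), which became -0.56 under size factors.

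Pgk2 makes the germ-cell phosphoglycerate kinase, which yields ATP in the step that follows Gapdhs. Its levels were 917, 961, 970.4 and 886 CPM in wild type 1 to 4 and 759.8, 718 and 744 CPM in mutants 1, 2 and 4. The genotypes did not overlap, and the spread among the 3 mutants was smaller than among the wild types. This was a log2 fold change of -0.33 ± 0.04 (SE, limma FDR = 1.81e-05).

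Ldhc makes the testis lactate dehydrogenase, which works in spermatocytes, spermatids and sperm. It was the most abundant member at 3534, 3636, 3496 and 3629 CPM in wild type 1 to 4, and it stood at 2966, 2983 and 2918 CPM in mutants 1, 2 and 4. The 3 mutants were close to each other and all lay below the wild types. With a log2 fold change of -0.27 ± 0.03 (SE, limma FDR = 1.96e-05), it had the smallest fall among the germ-cell forms.

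Aldoart1 is a retrogene of Aldoa and makes an aldolase of the sperm tail, the enzyme that cuts fructose 1,6-bisphosphate into triose phosphates. It stood at 148, 149, 138 and 144 CPM in wild type 1 to 4 and at 113, 103 and 109.6 CPM in mutants 1, 2 and 4. The order of the mutants was that of Gapdhs, with mutant 2 lowest and mutant 1 highest. The log2 fold change was -0.42 ± 0.05 (SE, limma FDR = 8.88e-06).

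Hk1 makes hexokinase 1, which phosphorylates glucose in the first step, and germ cells use transcripts of this gene that begin with their own exons. The table holds 1 value per gene, so those transcripts and the somatic ones were measured together. Hk1 stood at 2089, 1999, 1948 and 1990.0 CPM in wild type 1 to 4 and at 1551, 1354 and 1467 CPM in mutants 1, 2 and 4. No mutant reached the lowest wild type, and the log2 fold change of -0.46 ± 0.05 (SE, limma FDR = 2.9e-06) was the largest fall among the 10 members under either scaling. It lay beside those of Gapdhs and Aldoart1 rather than beside the somatic forms.

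**Figure D2:**
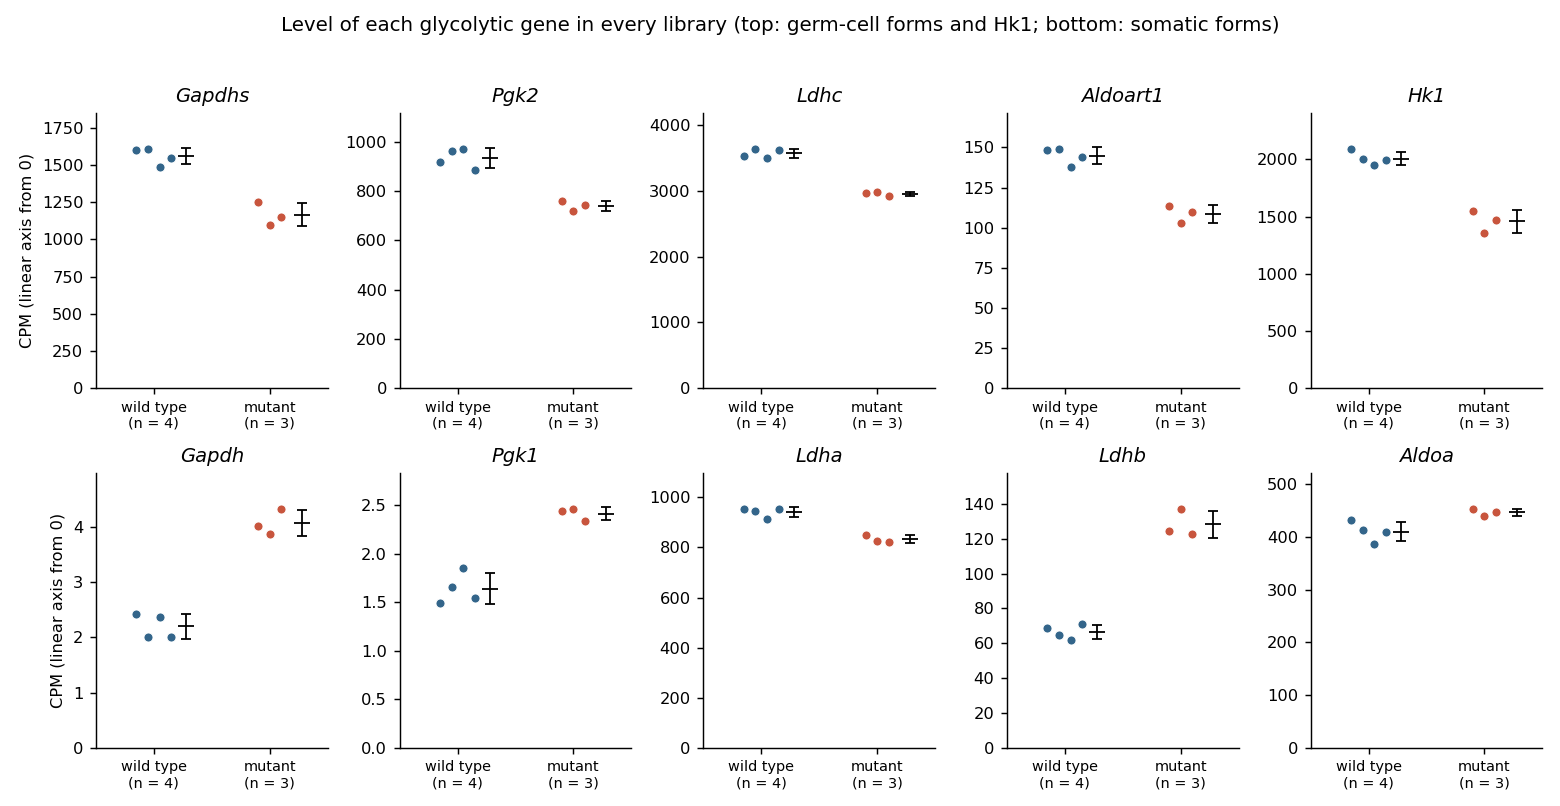
Each panel gives the CPM of a gene (linear axis from 0) in the 4 wild-type libraries (blue) and the 3 mutant libraries (red), with the mean ± SD in black beside them. Gapdhs, Pgk2, Ldhc, Aldoart1, Hk1 and Ldha lie lower in every mutant than in any wild type, and Gapdh, Pgk1, Ldhb and Aldoa lie higher, although Aldoa overlaps once CPM are divided by size factors.

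The somatic forms fell into 3 patterns. Ldhb makes the heart-type subunit of lactate dehydrogenase, which is common in tissues that take up lactate. It stood at 68.5, 64.9, 61.7 and 70.9 CPM in wild type 1 to 4 and at 125, 137 and 123 CPM in mutants 1, 2 and 4. The lowest mutant was well above the highest wild type. The log2 fold change was 0.95 ± 0.06 (SE, limma FDR = 4.06e-08), a 1.93-fold rise of the mean and the largest change of any member.

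Gapdh, the glyceraldehyde-3-phosphate dehydrogenase of most cells and a usual reference gene, was nearly unseen in this table. It stood at 2.42, 2.01, 2.37 and 2.00 CPM in wild type 1 to 4 and at 4.02, 3.87 and 4.33 CPM in mutants 1, 2 and 4. This was 69 to 81 reads per wild-type library and 124 to 141 per mutant library. The genotypes did not overlap, and the exact Poisson 95% intervals of the single libraries, which cover counting error only, ran from 1.56 to 3.01 CPM in wild type and from 3.22 to 5.11 CPM in mutants. Its log2 fold change was 0.86 ± 0.14 (SE, limma FDR = 0.000164). Since 85.1% of its 100-base windows occur elsewhere in the genome and antisense Iffo1 rose with it, this value holds for the reads assigned to Gapdh and not for its messenger RNA as a whole.

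Pgk1 is the X-linked phosphoglycerate kinase of somatic cells and of germ cells before meiosis. Its values were 1.496, 1.66, 1.86 and 1.54 CPM in wild type 1 to 4 and 2.44, 2.46 and 2.33 CPM in mutants 1, 2 and 4. Those are 50 to 61 reads in a wild-type library and 76 to 85 in a mutant. None of the wild-type libraries reached the minimum of 2.2 CPM and all 3 mutants did, so Pgk1 was tested only because it was higher in the mutant, and its lack of overlap supports nothing. Its log2 fold change of 0.54 ± 0.16 (SE) came with a limma FDR of 0.0103, just outside the threshold.

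Ldha makes the muscle-type subunit of lactate dehydrogenase, and unlike the other somatic forms it was lower in the mutant. It stood at 953, 946, 915 and 955 CPM in wild type 1 to 4 and at 851, 827 and 822 CPM in mutants 1, 2 and 4. The genotypes were apart, though by less than for any germ-cell form. On the log2 scale the change was -0.18 ± 0.04 (SE, limma FDR = 0.00077), and -0.31 under size factors.

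Aldoa, the aldolase of muscle and of most cells, stood at 432, 413, 386 and 410.4 CPM in wild type 1 to 4 and at 454, 439 and 447 CPM in mutants 1, 2 and 4. The 3 mutants were above all wild types on the CPM scale, but wild type 1 lay just below the lowest mutant. The log2 fold change was 0.12 ± 0.04 (SE, limma FDR = 0.0221), which is the median of all tested genes, and it turned to -0.01 under size factors (limma FDR = 0.838) with overlapping genotypes. No direction is given for Aldoa.

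Counted by overlap, the genotypes were apart for 10 of the 10 members, with 6 lower and 4 higher in the mutant, where 19.5% and 42.8% of all tested genes were apart in those directions. Of the 4 that were higher, Pgk1 had to be, and Aldoa was no longer apart under size factors. The median log2 fold change was -0.38 over the 4 germ-cell forms, beside 0.12 over all tested genes. No median is given for the somatic forms, since it would be the value of Pgk1.

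Levels between genes are compared per kilobase of the canonical transcript. In wild type the order was Ldhc with 2236 ± 44 CPM per kb, Gapdhs with 1071 ± 38, Ldha with 593 ± 12, Pgk2 with 574 ± 24, Hk1 with 469 ± 14, Aldoa with 272 ± 12, Aldoart1 with 70.6 ± 2.5, Ldhb with 43.5 ± 2.6, Gapdh with 1.55 ± 0.16 and Pgk1 with 0.898 ± 0.088 (SD, n = 4). Ldha and Pgk2 were the only neighbours in this order whose wild-type ranges overlapped. In the mutant the order was the same save that Ldhb, at 83.8 ± 5.2 CPM per kb, passed Aldoart1, at 53.0 ± 2.6 (SD, n = 3). Transcripts with other lengths would change these levels but not the comparison of a gene with itself.

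The fall of a germ-cell form and the change of its somatic paralogue can be joined in a single ratio per library, in which the scaling of that library enters only through the small number added to each CPM. In each library the log2 ratio of germ-cell to somatic CPM was taken, with 0.1 added to both, and the mutant mean was compared with the wild-type mean. The test was the exact two-sided permutation test over the 35 splits of 7 libraries into 3 and 4, whose smallest value is 0.0286. Counted as the doubled smaller tail, the smallest value is 0.0571. All p-values were 0.0286, and 0.0286 after Benjamini-Hochberg adjustment over the 5 pairs, so the sizes and the spread tell the pairs apart and the p-values do not. The ratio of Pgk2 to Pgk1 was among the 5 but is given as a description only. Pgk1 was tested only because it was higher in the mutant.

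The Gapdhs to Gapdh ratio and the Ldhc to Ldhb ratio fell further than the other 3, and the order of these 2 depended on the setting. With 1 added in place of 0.1 their differences were -1.09 and -1.21, and without mutant 4 they were -1.235 and -1.241. The log2 ratio of Gapdhs to Gapdh was 9.31, 9.57, 9.23 and 9.53 in wild type 1 to 4 and 8.24, 8.11 and 8.02 in mutants 1, 2 and 4. The mean fell from 9.41 ± 0.16 to 8.13 ± 0.11 (SD), a difference of -1.29, and the 12 mutant against wild-type differences ran from -0.99 to -1.55 (exact permutation p = 0.0286). In plain ratios this was 627 to 799 Gapdhs reads for each Gapdh read in wild type and 266 to 310 in mutants. Most of that fall came from the rise of the reads assigned to Gapdh, a gene copied over most of its length.

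The Ldhc to Ldhb ratio gave a difference nearly as large from genes with many reads. Of the windows of Ldhb, 28.5% at 50 bases and 7.9% at 100 bases are copied elsewhere, a smaller form of the limit on Gapdh. The ratio was 5.69, 5.80, 5.82 and 5.68 on the log2 scale in wild type 1 to 4 and 4.57, 4.44 and 4.57 in mutants 1, 2 and 4. The difference of the means was -1.22, and the single differences between libraries ran from -1.10 to -1.38 (exact permutation p = 0.0286). The 3 mutants were close to each other and lay more than 1 log2 unit below all wild types.

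The Pgk2 to Pgk1 ratio was 9.17, 9.09, 8.95 and 9.07 on the log2 scale in wild type 1 to 4 and 8.22, 8.13 and 8.26 in mutants 1, 2 and 4. The difference was -0.87, with the limits on Pgk1 given above. The Aldoart1 to Aldoa ratio was -1.54, -1.47, -1.49 and -1.51 in wild type 1 to 4 and -2.0, -2.10 and -2.03 in mutants 1, 2 and 4. Its difference was -0.54 (exact permutation p = 0.0286), with -0.46 to -0.63 over the single differences between libraries. The ratio of this retrogene to its parent therefore fell in every comparison, although Aldoa alone could be given no direction.

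The Ldhc to Ldha ratio moved least, because both genes fell. It was 1.89, 1.94, 1.93 and 1.93 on the log2 scale in wild type 1 to 4 and 1.80, 1.85 and 1.83 in mutants 1, 2 and 4. The difference of -0.10 (exact permutation p = 0.0286) was 1.07-fold, and the nearest libraries of the 2 genotypes were only 0.04 apart.

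**Figure D3:**
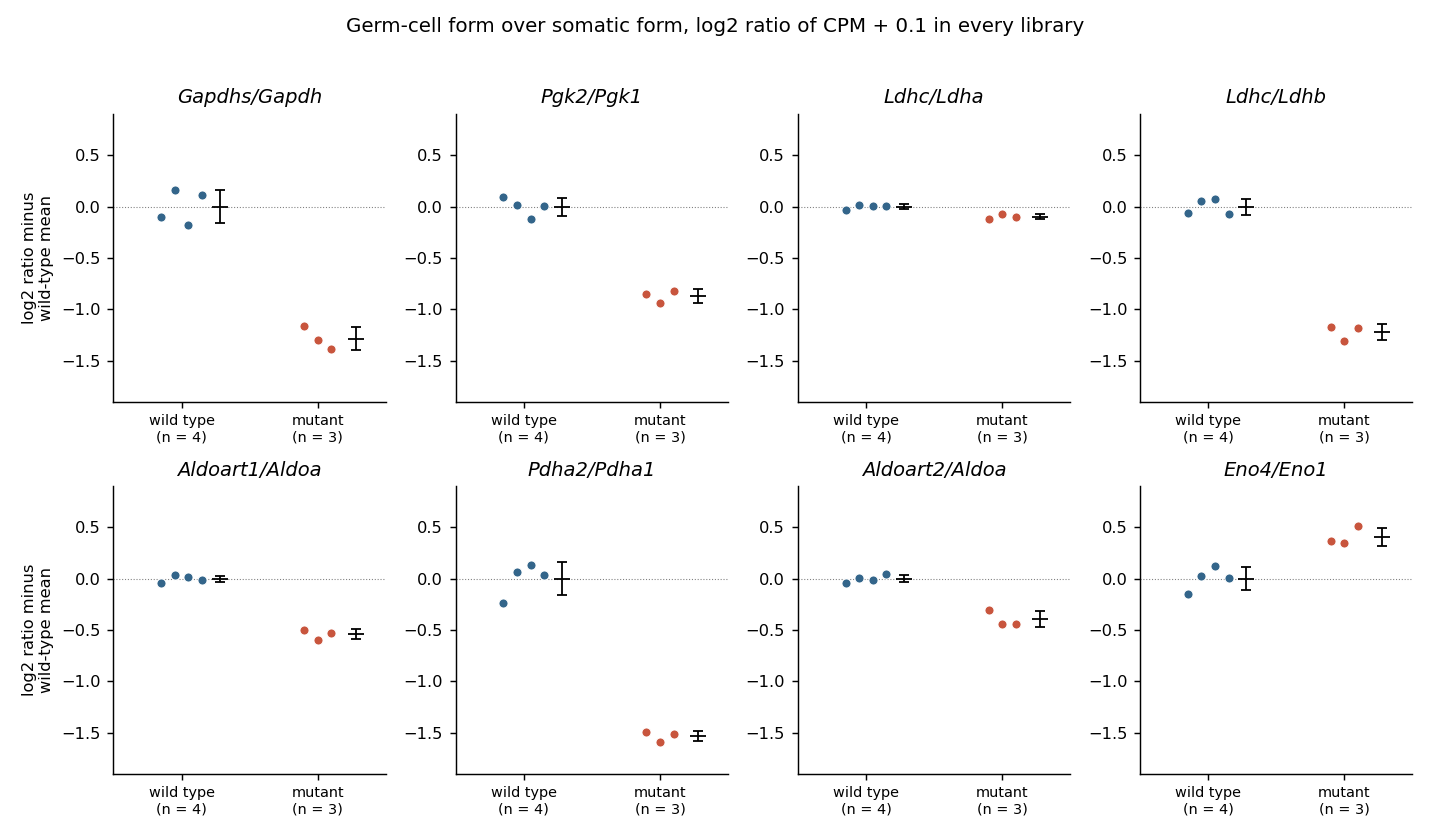
Each panel gives the log2 ratio of a germ-cell form to its somatic paralogue in every library, less the wild-type mean (dotted line at 0), for 4 wild-type (blue) and 3 mutant (red) libraries, with the mean ± SD in black. The ratio lies lower in all 3 mutants in the 5 member pairs, from -0.10 for Ldhc/Ldha to -1.29 for Gapdhs/Gapdh, and higher for Eno4/Eno1. Pgk2/Pgk1 is shown as a description only.

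Lactate dehydrogenase messages were also put together as shares, per kilobase. Ldhc made up 77.42% to 78.10% of the 3 messages in wild type and 75.04% to 75.35% in mutants. Ldha made up 20.4% to 21.0% in wild type and 21.0% to 21.7% in mutants, ranges that meet without overlap. Ldhb went from 1.44% to 1.59% in wild type to 3.29% to 3.62% in mutants. The lactate dehydrogenase message of the mutant testis was thus still mainly Ldhc, with a larger part of Ldhb. For aldolase, shares were taken over Aldoart1, Aldoart2 and Aldoa, and Aldoc was left out. Aldoart1 went from 11.7% to 12.1% in wild type to 9.31% to 9.70% in mutants. Aldoa went from 45.3% to 46.5% to 51.7% to 54.0%, with Aldoart2 making up the rest of these messages.

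Ratios within a library were also taken among the 6 members that fell. The log2 ratio of Gapdhs to Aldoart1 was 3.43 ± 0.01 in wild type and 3.42 ± 0.03 in mutants (SD), and the genotypes overlapped. The ratio of Gapdhs to Hk1 also overlapped between genotypes, at -0.36 ± 0.03 and -0.32 ± 0.02. The ratio of Gapdhs to Ldhc went from -1.20 ± 0.04 to -1.34 ± 0.10 without overlap, and that of Hk1 to Ldha from 1.09 ± 0.03 to 0.80 ± 0.08. Of the 6 ratios among the 4 germ-cell forms, the 2 without overlap were those of Gapdhs and Aldoart1 to Ldhc, both lower in the mutant. The ratio of Hk1 to Ldhc and those of the other 5 members to Ldha were also lower without overlap. The ratios of Pgk2 to Gapdhs, Aldoart1, Hk1 and Ldhc overlapped between genotypes. These ratios are descriptions without a test.

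All tested genes were searched for the profiles most like each germ-cell form, by the root mean square difference of log2 values over the 7 libraries after centring each gene. The nearest profile to Gapdhs was Aldoart1, at 0.0188, followed by Acsbg2 at 0.0199 and Gm49600 at 0.0234. Hk1 came 16th by the same measure, at 0.0316, while Pgk2 came 329th, at 0.0784, and Ldhc 584th, at 0.0952. The nearest profiles to Aldoart1 were Gapdhs at 0.0188, Pkib at 0.0200 and Tex48 at 0.0211. Those of Pgk2 were Atp8a2 at 0.0128, Ppp1r14bl at 0.0211 and Fem1b at 0.0213, and those of Ldhc were Gm5922 at 0.0178, Adam3 at 0.0182 and Isg20l2 at 0.0188. Ldha ranked 299th from Ldhc, at 0.0521.

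The rest of the pathway was mixed. Of 32 other glycolytic and pyruvate-entry genes, all present in the table and tested, 11 were called higher, 7 lower and 14 in neither direction, with a median log2 fold change of 0.11 beside 0.12 over all tested genes. Pdk4, which makes a pyruvate dehydrogenase kinase, is 1 of the 11, but it reached 2.2 CPM in 0 wild-type and 3 mutant libraries and so was tested only because it was higher there. Hkdc1, Eno2, Pklr and Ldhal6b were not analysed here. Under size factors 9 were called higher and 11 lower, where 27% and 25.1% of all tested genes were called in those directions. The added falls were those of Pfkm (log2 fold change -0.23), Eno1 (-0.23), Pfkfb3 (-0.27) and Dlat (-0.22). Eno4 and Dld, a gene of the pyruvate dehydrogenase complex, were no longer called higher. The log2 fold change of Dld went from 0.24 to 0.11 (limma FDR = 0.166).

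Genes near the start of the pathway went both ways. Gpi1, which turns glucose 6-phosphate into fructose 6-phosphate, had 324 ± 23 CPM in wild type and 268 ± 24 CPM in mutants (SD), and it fell with a log2 fold change of -0.27 (limma FDR = 0.00308) although wild type 3 lay below mutant 1. Without wild type 1 or 2, or without mutant 2 or 4, Gpi1 missed the threshold (limma FDR = 0.0103 to 0.0195). Hk2, the hexokinase of insulin-sensitive tissues, rose from 36.1 ± 3.1 to 54.1 ± 1.3 CPM, with a log2 fold change of 0.59. Hk3, a hexokinase of blood cells, fell from 3.99 ± 0.69 to 2.43 ± 0.30 CPM, with a log2 fold change of -0.69 (limma FDR = 0.00217) that missed the threshold without mutant 4 (limma FDR = 0.0113). Among the phosphofructokinases, which commit glucose to the pathway, Pfkl rose from 21.4 ± 1.9 to 56.1 ± 2.5 CPM. Pfkp, the most abundant at 208 ± 6.8 CPM in wild type, had a log2 fold change of -0.14 with a limma FDR of 0.00998, just inside the threshold, and missed it whichever library was left out (limma FDR = 0.0104 to 0.0506). Pfkm had one of -0.09 that did not pass, although it passed under size factors (limma FDR = 0.000296). Hk2 and Pfkl, which rose, were less abundant in CPM than Gpi1 and Pfkp, which were lower.

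The aldolase and triose phosphate step held a second retrogene. Aldoart2, also a retrogene of Aldoa, with 94.8% protein identity to it, stood at 425, 419.6, 388 and 428 CPM in wild type 1 to 4 and at 373, 328 and 334 CPM in mutants 1, 2 and 4. It fell with a log2 fold change of -0.27 (limma FDR = 0.000597), and its log2 ratio to Aldoa went from 0.02 ± 0.03 to -0.38 ± 0.08. Aldoc, the brain aldolase, rose from 8.97 ± 1.1 to 19.95 ± 2.4 CPM. Tpi1, the triose phosphate isomerase used in every cell, had 310 ± 7.8 CPM in wild type and 311 ± 12 CPM in mutants and did not pass the test.

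In the lower part of the pathway, Pgam2, the phosphoglycerate mutase of muscle, heart and sperm, fell from 721 ± 36 to 538 ± 41 CPM with a log2 fold change of -0.42 (limma FDR = 2.13e-05). This equalled the falls of Gapdhs and Aldoart1 in size. Among the enolases, Eno1 had a log2 fold change of -0.09 and Eno3 of 0.11, and neither passed, although Eno1 did under size factors (limma FDR = 0.00387). Eno4, a sperm enolase, instead rose from 49.2 ± 2.7 to 61.1 ± 1.5 CPM, with a log2 fold change of 0.31 (limma FDR = 0.000285) that under size factors was 0.18 and no longer passed (limma FDR = 0.0121). Its ratio to Eno1 went from -0.45 ± 0.11 to -0.04 ± 0.09 on the log2 scale, the only paralogue ratio given here that went up. Eno4 and Eno1 share 26.2% of aligned residues, fewer than any other pair. Eno1 has 51.9% of its 100-base windows copied elsewhere, and its level carries the same doubt as that of Gapdh.

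Pkm, the pyruvate kinase of most tissues, had 377 ± 12 CPM in wild type and 386 ± 9.2 CPM in mutants and did not pass. Ldhd, which oxidises D-lactate in mitochondria, rose from 8.31 ± 0.68 to 38.6 ± 4.0 CPM, the largest log2 fold change of the pathway genes at 2.203. Among the regulators of fructose 2,6-bisphosphate and bisphosphoglycerate, Bpgm fell from 120 ± 4.0 to 101 ± 0.20 CPM with a log2 fold change of -0.26. Pfkfb3 and Pfkfb4, which set the level of fructose 2,6-bisphosphate, had log2 fold changes of -0.14 and 0.12 and did not pass. Under size factors Pfkfb3 passed (limma FDR = 0.00268).

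The entry of pyruvate into the mitochondrion has a germ-cell pair of its own, Pdha2 and the X-linked Pdha1, which make the E1 alpha subunit of pyruvate dehydrogenase. Pdha2 stood at 175.2, 174.7, 169 and 188 CPM in wild type 1 to 4 and at 157, 155 and 157.5 CPM in mutants 1, 2 and 4. Pdha1 stood at 5.80, 4.66, 4.32 and 5.14 CPM in wild type and at 12.5, 13.2 and 12.8 CPM in mutants. Pdha2 fell with a log2 fold change of -0.18 (limma FDR = 0.00343) and Pdha1 rose with one of 1.36 (limma FDR = 4.13e-07). Pdha2 missed the threshold without any 1 of the 3 mutants (limma FDR = 0.0102 to 0.0148). Their log2 ratio fell by 1.53, from 5.13 ± 0.16 to 3.60 ± 0.05, more than any member pair, and unlike Gapdh and Pgk1 neither gene had a 100-base window copied elsewhere. In the exact permutation test over 35 splits the p-value was 0.0286 for each of the 3 pathway pairs, and 0.0286 after adjustment over those 3. Of the other genes of the complex and its kinases, Pdhb and Pdk2 did not pass, with log2 fold changes of 0.14 and 0.04, although Pdhb passed without wild type 1 (limma FDR = 0.00989).

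**Figure D4:**
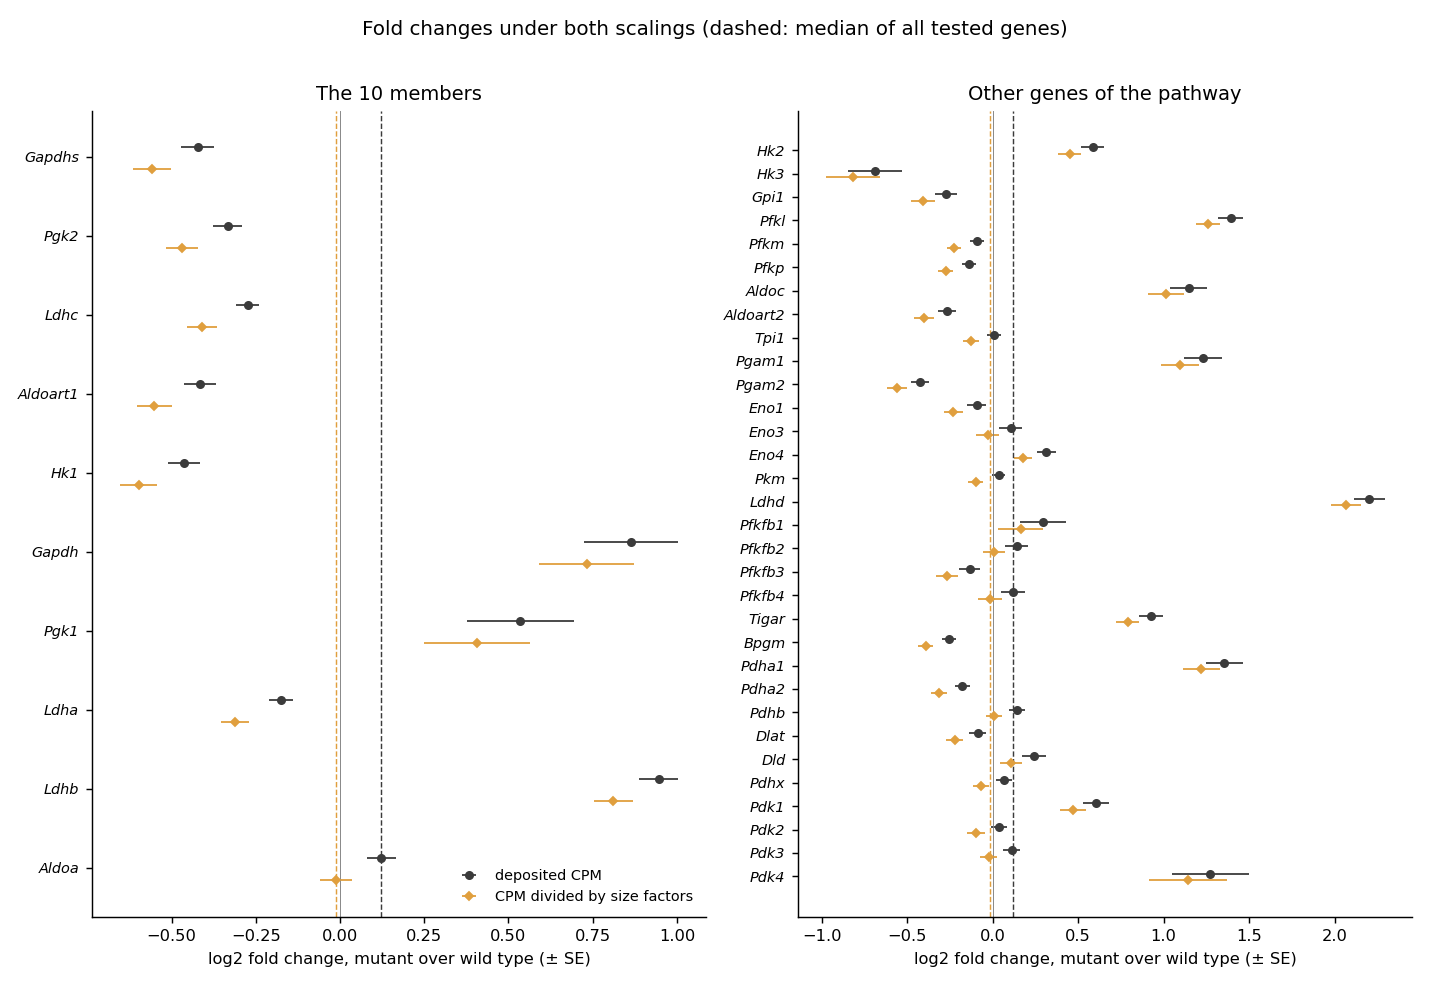
Points give the log2 fold change of the mutant over wild type ± SE for the 10 members (left) and the 32 other pathway genes (right), from deposited CPM (dark circles) and from CPM divided by size factors (orange diamonds); dashed lines are the medians of all tested genes, 0.12 and -0.01. Germ-cell forms and Hk1 lie left of both medians, Ldhb and Gapdh lie right of them, and Aldoa lies on them.

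Levels of cell type markers moved with these genes and are given beside them. Markers of elongating spermatids, 7 genes such as the protamines Prm1 and Prm2, were called lower in 7 of 7 cases with a median log2 fold change of -0.61, and their summed level went from between 23036 and 24402 CPM in wild type to between 14603 and 16742 CPM in mutants. Round spermatid markers were called lower in 4 of 7 cases, with a median of -0.20 (7 of 7 and -0.33 under size factors) and sums of 1150.0 to 1242 CPM against 1007 to 1081 CPM. Spermatocyte markers were called in 0 of 7 cases by limma (1 of 7 at an unadjusted p below 0.05, and 2 called lower under size factors), with a median of -0.05 and sums of 1115 to 1125 CPM against 1047 to 1112 CPM. The log2 fold changes of Gapdhs, Pgk2, Ldhc and Aldoart1, from -0.42 to -0.27, lay between the medians of the round and elongating spermatid lists. Spermatogonial markers were called higher in 4 of 7 cases, and in 1 of 7 under size factors. Their sums were 112 to 124 CPM in wild type and 166 to 193 CPM in mutants.

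Markers of Leydig cells, Sertoli cells and macrophages went the other way, as did Ldhb, Gapdh and Pdha1. Leydig cell markers were called higher in 6 of 7 cases, with sums of 1021 to 1224 CPM in wild type and 4296 to 4472 CPM in mutants. Sertoli cell markers were called higher in 7 of 7 cases (5 of 7 under size factors), with sums of 987 to 1072 CPM against 2079 to 2210 CPM. Macrophage markers were called higher in 6 of 6 cases, with sums of 55.8 to 62.8 CPM against 136 to 157 CPM. Endothelial markers were called higher in 2 of 5 cases, myoid markers in 1 of 4 and red blood cell markers in 0 of 4 by limma. The endothelial sums were 30.6 to 34.5 CPM in wild type and 44.0 to 46.4 CPM in mutants. Among all tested genes, 36.3% were called higher. Under size factors, 2 endothelial markers were called higher and 1 lower. At an unadjusted limma p below 0.05 were 3 of 4 red blood cell markers, 1 of them lower in the mutant. None of the markers tested was at 0 in all libraries. The part of these marker levels in the changes of the glycolytic genes was not tested.

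**Figure D5:**
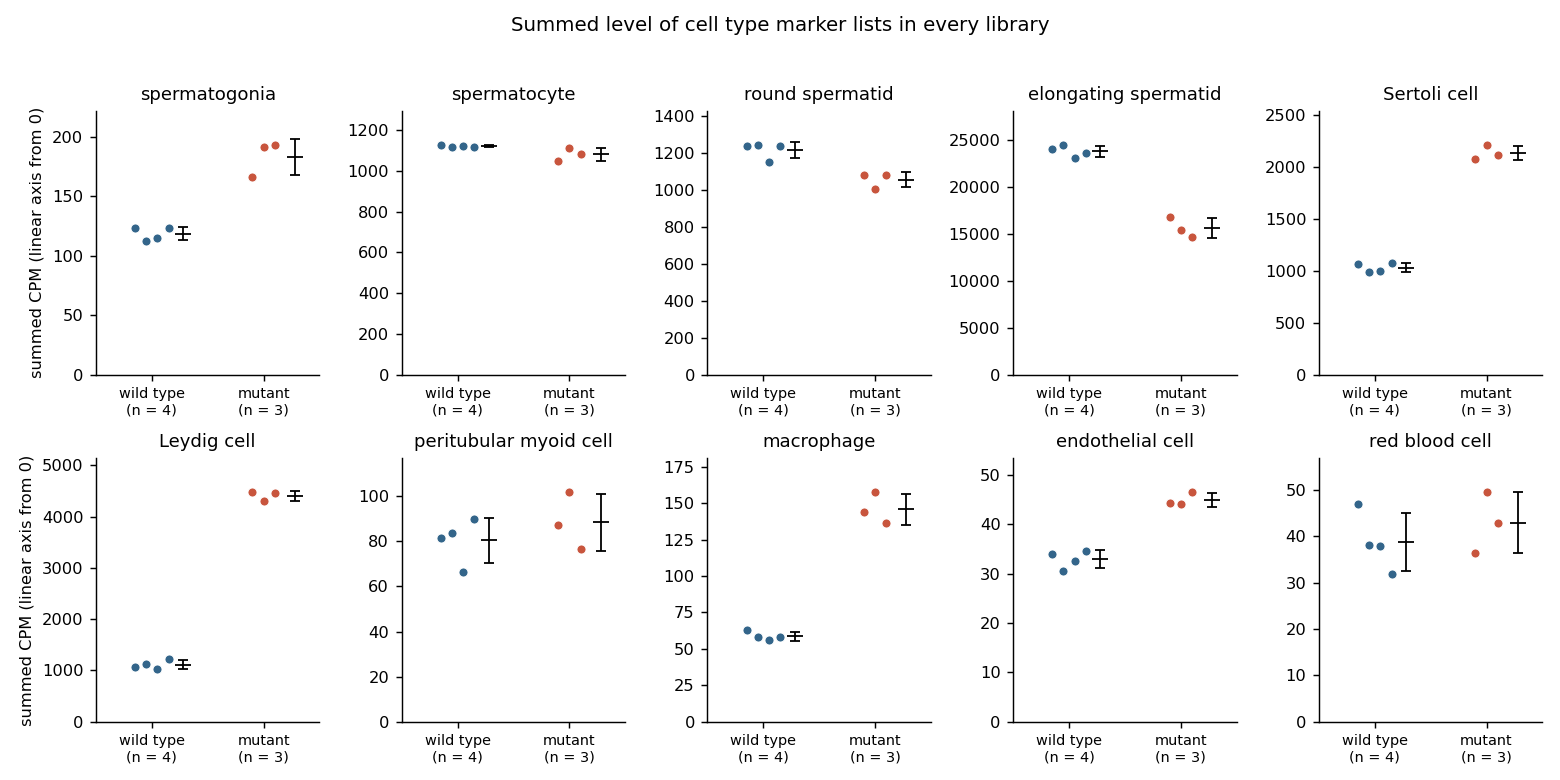
Each panel gives the summed CPM (linear axis from 0) of a cell type's marker genes in 4 wild-type (blue) and 3 mutant (red) libraries, with the mean ± SD in black. The elongating spermatid sum lies lower in all mutants, at 14603 to 16742 against 23036 to 24402 CPM, and so do the round spermatid and spermatocyte sums. The Leydig, Sertoli, macrophage, spermatogonial and endothelial sums lie higher in all of them.

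Upstream sequence differed between the 2 phosphoglycerate kinases. The 200 bases before the start of each gene's canonical transcript were read from GRCm39 and searched on both strands for TGACG, the half-site of the cAMP response element used by germ-cell CREM, for GGGCGG, a GC box, and for ACGTG, the core of the hypoxia response element that many glycolytic genes carry. TGACG and ACGTG can share bases. Of 17044 such windows of the table's genes, 18.6%, 39.8% and 15.9% held the motifs in that order, and the median window had 9 CpG dinucleotides. The windows of Pgk2 and Pgk1 are printed below 5′ to 3′ on the strand of the gene, with motif matches in capitals. That of Pgk2 is at chr17:40519532-40519731 on the minus strand and that of Pgk1 at chrX:105230506-105230705 on the plus strand.
Pgk2: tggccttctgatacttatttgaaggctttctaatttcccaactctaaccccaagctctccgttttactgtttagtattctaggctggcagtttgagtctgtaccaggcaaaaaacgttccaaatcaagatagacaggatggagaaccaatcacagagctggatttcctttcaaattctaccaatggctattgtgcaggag
Pgk1: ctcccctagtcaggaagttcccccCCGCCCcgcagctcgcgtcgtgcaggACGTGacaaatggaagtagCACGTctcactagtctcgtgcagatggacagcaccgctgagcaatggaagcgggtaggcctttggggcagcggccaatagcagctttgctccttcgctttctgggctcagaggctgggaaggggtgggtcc

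The Pgk2 window held 2 CpG dinucleotides and none of the 3 motifs, and the Pgk1 window held 12, with 1 GC box and 2 ACGTG. None of the 3 motifs was found for Gapdhs, Gapdh, Ldhb or Hk1 either. The windows of Gapdhs, Ldhc and Aldoart1 held 1, 5 and 5 CpG, and those of Gapdh, Ldha and Aldoa held 7, 24 and 16, so in each pair with these genes the germ-cell form had fewer. Ldhb, with 4 CpG, was the somatic form that did not keep to this. Ldha, the somatic form that fell, held 2 TGACG, 3 GC boxes and 5 ACGTG. Matches were counted on each strand, so its single TGACGTCA gave both TGACG, and each CACGTG there counted as 2 ACGTG. A match describes the sequence and says nothing of a factor at work there.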

How the data were processed

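Total RNA of adult mouse testes was sequenced as paired reads by the authors, trimmed with Trimmomatic, mapped to GRCm39 with Subread and counted per gene with featureCounts. The annotation release, strand setting and treatment of reads with several matches are not given in the sources used here. What the authors deposited is a table of CPM, filtered on low counts, in which each of the 7 columns sums to the same total and shows no further scaling between libraries. In every column, 100% of values were whole multiples of a single step to within 0.01, and with that step as 1 read the libraries held 32064384 to 37551057 reads. Read numbers in the text, and intervals made from them, rest on reads rebuilt in this way and not on deposited counts.

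The 17126 of 17127 genes that reached 2.2 CPM in 2 or more libraries of either group were fitted on log2(CPM + 0.1) with limma 3.58.1 (lmFit, eBayes with a trend) in R 4.3.3, and fold changes are on that scale. Wild type 1 to 4 and mutants 1, 2 and 4 were compared without covariates. P-values were adjusted over all tested genes with the Benjamini-Hochberg method, and genes were called at an FDR of 0.01. Ratios of paralogues were tested with the exact two-sided permutation test. Both procedures were tested on simulated data. The study sampled 4 males of each genotype, while the labels do not tie libraries to animals. Gene symbols, coordinates and canonical transcripts came from GENCODE release M39 on GRCm39, where 17045 identifiers were found and 82 were not. Sequences were read from that genome with Biopython 1.88, and tables, tests and plots were made with pandas 2.3.3, SciPy 1.17.1, NumPy 2.4.6 and matplotlib 3.10.9 in Python 3.11.15.

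The members and lists were chosen with earlier results of these data known, and 2 genes first listed with the pathway are not reported here. Named in the text are all members, genes of the paralogue pairs, the 3 most abundant tested genes of each pathway list and the 3 nearest profiles of each germ-cell form. Pdk4, Dlat, Dld, Pgam1, the genes that overlap members, and the ratios among the members that fell, were chosen after their values were seen. Replicate numbers did not pair the samples. Each fit was repeated with size factors, with the replicate block, with 1 or 0.01 in place of the pseudocount, with the minimum dropped or raised to 5 CPM, and without each library.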

Additional observations from a re-analysis of the deposited data

Results flagged for a closer look

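In 3 genes of the pathway, wild type 3 stood apart from the other wild-type libraries. Gpi1, the glucose phosphate isomerase, had 289.6 CPM there, against 333 to 338 CPM in the other 3, and the gap made up 0.897 of the range of the group, more than Dixon's test allows at the 95% level. Pgam1, a phosphoglycerate mutase, had 10.682 CPM against 7.70 to 8.01 CPM, with a gap of 0.895 of the range. Dlat, which makes the E2 subunit of pyruvate dehydrogenase, had 105.17 CPM against 95.13 to 96.007 CPM, with a gap of 0.913 of the range. Of 50 sets of 4 wild-type values examined this way, 3 were set apart, and chance sets apart about 1 in 20. None of the 10 members and none of the paralogue ratios was set apart.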

How the results depend on the processing

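The 6 falls (Gapdhs, Pgk2, Ldhc, Aldoart1, Hk1 and Ldha) and the rise of Ldhb were called in the same direction under every alternative run, and the rise of Gapdh under every one that tested it. A minimum of 5 CPM left Gapdh and Pgk1 untested, so that 1 member was called higher. Pgk1 passed with a pseudocount of 1 (FDR = 0.00847) and without wild type 3 (FDR = 0.00809), and under no other alternative. Aldoa was called under no alternative, and its log2 fold change was -0.01 with size factors. With size factors, 11 pathway genes and 4294 of all genes were called lower, and 4624 of all genes higher. When single libraries were left out, the pathway genes called lower ranged from 3 (without mutant 4) to 6, with 4 without mutant 2, against 7 with all libraries; fewer libraries entered those fits.

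The ratios Gapdhs/Gapdh, Ldhc/Ldha, Ldhc/Ldhb and Aldoart1/Aldoa kept their direction under all alternatives. The values of Pgk2/Pgk1 are a description only, since Pgk1 was tested only because it was higher in the mutant. With a library left out the smallest possible exact p is 0.1 or 0.0667, so no threshold could be passed, and the differences ranged from -1.345 to -1.232 for Gapdhs/Gapdh, -0.91 to -0.83 for Pgk2/Pgk1, -0.110 to -0.085 for Ldhc/Ldha, -1.24 to -1.18 for Ldhc/Ldhb and -0.56 to -0.51 for Aldoart1/Aldoa. With the replicate block over the 3 shared numbers the differences were -1.345, -0.908, -0.094, -1.195 and -0.53 in that order, where the smallest p is 0.25. Same-numbered libraries did not deviate together (correlations of 0.03, 0.01 and -0.10), and the replicate block in limma called 5583 genes higher and 2139 lower. Count models on reads rebuilt from CPM, listed among the alternatives, were not run. The values were whole multiples of a single step, but a separate check of the unit did not accept the rebuilt reads as counts. Read numbers and intervals made from them carry that doubt. Depth limits Gapdh and Pgk1, at 50 to 141 reads a library, and no other member.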
